A study of Mus musculus with 12 samples.

Results

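All 8 liver tumors of 2 genotypes were set as 1 group against all 4 wild-type livers, to describe what the tumors of both genotypes shared. The tumors and livers were chosen by their labels alone and make up all 12 libraries of the series. The 4 DKO tumors came from mice in which Alb-Cre, a Cre recombinase driven by the hepatocyte-specific albumin promoter, deleted E2f7 and E2f8, and the 4 TKO tumors from mice in which it deleted Rb1 as well. The tumors had arisen spontaneously. The 4 wild-type livers were non-tumor tissue. Among the sample titles, only those of the wild-type livers say adult. In the study, mice followed for life-span were found dead or were euthanized once moribund, and tumors were taken at the end of life. The exact age and the sex are not in the labels. By its label every tumor came from a mouse with E2f7 and E2f8 deleted, and no tumor-free tissue of such mice was sequenced here. The tumor state and the deletion therefore cannot be told apart. In RNA from pieces of tissue, fewer cells of a type and less RNA per cell cannot be told apart either.

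The reads came from poly(A) RNA on the SOLiD platform, and raw counts per gene were compared. The total count per library was 9165812 to 16190797 in wild-type livers and 10455159 to 16424973 in tumors. All 12 libraries held 1093 to 2293 counts of Y-linked genes and 1 to 6 counts of Xist, as in males. Albumin took from 6.57% to 10.1% of the counts in wild-type livers and from 4.82% to 22.7% in tumors. Levels are given in CPM, counts divided by the TMM-scaled library size and brought to a common total, which sets libraries side by side but does not correct for gene length.

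A library labelled as a TKO tumor, TKO 3, stood apart from the other tumors. Its closest library was wild-type 4 (r = 0.972 across log2 CPM), and its mean correlation was 0.964 with the wild-type livers and 0.931 with the other tumors. Of the other tumors, only DKO 3 also had a wild-type liver as its closest library, and its mean correlation was 0.952 with the wild-type livers and 0.949 with the other tumors. The Rb1 level of TKO 3, 4.91 CPM, lay with the other TKO tumors. TKO 3 was kept in every result unless its absence is named.

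The liver is built mainly of hepatocytes, which make most plasma proteins, run the urea cycle, break down amino acids and fatty acids in their mitochondria and clear drugs and bile acids. Adult hepatocytes seldom divide. RB, the protein of Rb1, holds the activating E2F transcription factors in check before DNA synthesis, and E2F7 and E2F8 repress E2F target genes later in the cell cycle. Liver tumors are known for more dividing cells, for a partial loss of hepatocyte metabolism and for a vasculature that differs from the sinusoids of normal liver.

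The deleted genes were looked at first. E2f7 had 1.11, 0.861, 0.542 and 0.732 CPM in the wild-type livers and ranged from 0.236 to 1.84 CPM in the tumors (median 0.870) (log2 fold change 0.26, standard error 0.437, adjusted p = 0.769). E2f8 was at 4.52, 8.97, 5.96 and 5.49 CPM in the wild-type livers and ranged from 7.59 to 52.2 CPM in the tumors (median 15.5) (log2 fold change 1.91, standard error 0.524, adjusted p = 0.068). Neither gene fell in the tumors, and 7 of 8 tumors had more E2f8 than any wild-type liver. The highest was TKO 3, at 52.2 CPM, although that library was closer to the wild-type livers than to the other tumors. Without TKO 3 the log2 fold change of E2f8 was 1.63 (standard error 0.454, adjusted p = 0.0463). Counts were summed over whole genes and the deleted exons are not given in the sources used here, so these levels are no check of the deletion. Rb1 was at 10.7, 6.52, 8.27 and 7.69 CPM in the wild-type livers, at 11.3, 8.38, 7.99 and 8.37 CPM in the DKO tumors and at 4.22, 5.47, 4.91 and 3.21 CPM in the TKO tumors. The 4 TKO tumors were below all other libraries, as their label says, while over all tumors the log2 fold change of Rb1 was -0.30 (standard error 0.293, adjusted p = 0.577). The p values here and throughout are those of edgeR's quasi-likelihood test with Benjamini-Hochberg adjustment over all tested genes.

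Of 13882 genes tested, 117 rose in the tumors (0.843%) and 91 fell (0.656%), 208 in all, at an adjusted p under 0.05. The genes that rose included tubulins, mitotic genes, CDK inhibitors and genes known from endothelial cells, and the genes that fell included metabolic genes of the hepatocyte and its mitochondria. The median log2 fold change was 1.28 among the genes that rose (range 0.42 to 3.76) and -0.81 among those that fell (range -4.02 to -0.39), against 0.03 over all tested genes. A change of more than 1 on the log2 scale was seen in 78 of the genes that rose and 27 of those that fell. All 8 tumors lay above all 4 wild-type livers for 305 genes (2.20%) and below them for 203 (1.46%). Of the 117 genes that rose, 91 had no overlap between the groups, and of the 91 that fell, 70. The calls passed narrowly: 14 genes shared the lowest adjusted p of 0.0259, and the median over the 208 genes was 0.044. Of the 13882 genes, 3116 had an unadjusted p under 0.05, 1813 higher and 1303 lower. Counts at that level in the lists below are to be read against this background.

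The number of calls depended on single libraries and on the test. Without TKO 3, 1150 genes were called (665 higher, 4.79% of 13896 tested, and 485 lower, 3.49%), and all 208 were among them. DESeq2 called 1344 genes (822 higher, 5.45% of 15081 tested, and 522 lower, 3.46%), again with all 208. In contrast, edgeR called 0 genes when any of wild-type 1, 2 or 3, TKO 1 or TKO 2 was left out, with 2205 to 2962 genes at an unadjusted p under 0.05. Scaling by total counts alone moved the median log2 fold change of all genes to 0.128 and changed the split to 63 higher and 7 lower.

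Over the called genes, the median change was smallest in TKO 3. In the other 7 tumors, 115 to 117 of the 117 genes that rose were above the highest wild-type liver, and 88 to 91 of the 91 genes that fell were below the lowest. In TKO 3, 96 and 75 were. The median log2 ratio to the mean of the wild-type livers was 0.61 in TKO 3 and 1.11 to 1.48 in the other tumors for the genes that rose, and -0.49 against -0.71 to -1.002 for the genes that fell. TKO 3 was the lowest tumor for 68 of the genes that rose and the highest for 51 of the genes that fell. These counts describe the libraries from which the genes were called. They are no test of TKO 3 or of how alike the other tumors are.

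**Figure D1:**
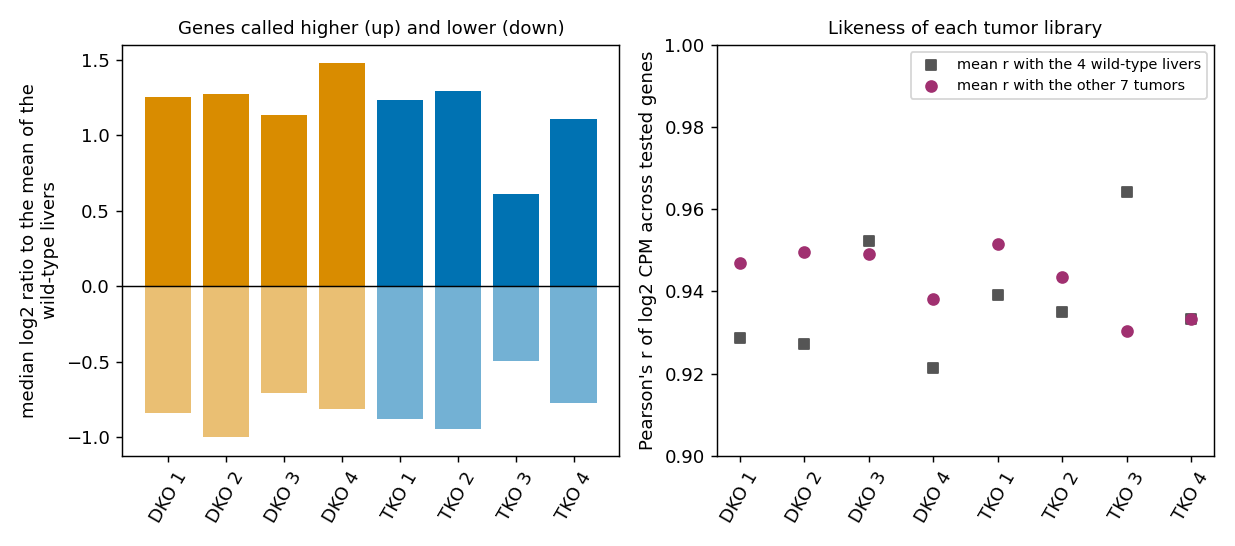
Left, bars give, for each tumor (orange DKO, blue TKO), the median log2 ratio to the mean of the wild-type livers over the 117 genes called higher (solid, up) and the 91 called lower (pale, down). Right, points give each tumor's mean Pearson's r of log2 CPM with the 4 wild-type livers (grey squares) and with the other 7 tumors (purple circles); the vertical axis starts at 0.90. TKO 3 has the shortest bars and is closer to wild-type livers (0.964) than to tumors (0.931), as DKO 3 is by a smaller margin (0.952 and 0.949), while TKO 4 has 0.933 for both.

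Among called genes with a mean of at least 5 CPM and no overlap between the groups, Lpl, Pygb and Nid1 had the highest log2 fold changes. Called genes whose groups overlapped, such as Esm1, are not in this order. Lpl (chr8:71404390-71431347 in mm9), the lipoprotein lipase that adult hepatocytes hardly make, was at 47.1, 23.5, 36.3 and 26.5 CPM in the wild-type livers and ranged from 123 to 602 CPM in the tumors (median 259), so that the lowest tumor, TKO 3, had 123 CPM (log2 fold change 3.14, standard error 0.498, adjusted p = 0.0259). Pygb (chr2:150612471-150657494), the brain form of glycogen phosphorylase, was at 13.9, 6.88, 12.4 and 9.45 CPM in the wild-type livers and ranged from 14.3 to 151 CPM in the tumors (median 74.0) (log2 fold change 2.93, standard error 0.623, adjusted p = 0.0448). TKO 3 and TKO 4, at 14.3 and 17.1 CPM, stood just above the wild-type livers, while the other 6 tumors had at least 66.3 CPM. Nid1 (chr13:13529869-13604542), the basement membrane protein nidogen, was at 23.4, 19.7, 19.6 and 31.8 CPM in the wild-type livers and ranged from 34.9 to 483 CPM in the tumors (median 170.0) (log2 fold change 2.91, standard error 0.621, adjusted p = 0.0448). DKO 1 was far above the other tumors, and TKO 3 and TKO 4 were again the lowest, at 34.9 and 45.4 CPM. Anxa5 (chr3:36347847-36374765), a protein that binds phosphatidylserine and is listed here among liver tumor markers, was at 34.3, 18.7, 27.0 and 25.8 CPM in the wild-type livers and ranged from 37.4 to 193 CPM in the tumors (median 128) (log2 fold change 2.31, standard error 0.374, adjusted p = 0.0274). TKO 3, at 37.4 CPM, was near the highest wild-type liver, and the other tumors had at least 100.5 CPM. Anxa5 was the 1 call among 37 tested oncofetal and liver tumor markers, with 7 called higher without TKO 3 and 9 by DESeq2. Their median log2 fold change was 1.28 over all tumors, 1.06 in DKO tumors and 0.76 in TKO tumors. Of 43 markers listed, Dlk1, Igf2bp1, Lin28b, Sall4, Hmga2 and Bex4 were not tested. They had at most 12 counts in any library, and the medians leave them out. Trpm4, a calcium-activated cation channel, Slc34a2, a phosphate transporter, Fst, the activin antagonist follistatin, and Atf3, a transcription factor of the stress response, rose from lower levels. Their log2 fold changes were 2.56, 2.23, 2.29 and 2.47 (adjusted p = 0.0497, 0.0393, 0.0393 and 0.0435 from edgeR), and no tumor overlapped a wild-type liver for any of them.

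Under the same limits, Entrez 100040465 and Mfsd2a had the lowest log2 fold changes. Nnmt and Saa3, at -3.80 and -2.58, were also low, but their groups overlapped. Entrez 100040465, a gene with no symbol in the names used here, was at 15.9, 35.0, 22.2 and 3.59 CPM in the wild-type livers and ranged from 0.414 to 2.84 CPM in the tumors (median 0.907) (log2 fold change -4.02, standard error 0.511, adjusted p = 0.0259). Its lowest wild-type liver, wild-type 4, was close to the highest tumor, TKO 3. Mfsd2a (chr4:122624093-122638431), which carries lysophosphatidylcholine with omega-3 fatty acids into cells, was at 76.3, 31.0, 43.5 and 71.2 CPM in the wild-type livers and ranged from 1.35 to 18.2 CPM in the tumors (median 4.41) (log2 fold change -3.27, standard error 0.557, adjusted p = 0.0379). All tumors lay below, DKO 3 being the highest at 18.2 CPM. Dpy19l3, a C-mannosyltransferase, and Lrtm1 had log2 fold changes of -2.49 and -2.46 (adjusted p = 0.044 and 0.0427). Slc2a5, the fructose transporter GLUT5, was at 11.7, 21.9, 13.01 and 17.1 CPM in the wild-type livers and ranged from 2.61 to 8.26 CPM in the tumors (median 5.83) (log2 fold change -1.49, standard error 0.312, adjusted p = 0.044). Gnmt (chr17:46862613-46866117), glycine N-methyltransferase, an abundant hepatocyte enzyme that uses up S-adenosylmethionine, was at 709, 1139, 833 and 811 CPM in the wild-type livers and ranged from 150.2 to 679 CPM in the tumors (median 304) (log2 fold change -1.49, standard error 0.334, adjusted p = 0.0479). TKO 3 lay at 679 CPM, just under the lowest wild-type liver, and the other 7 tumors at 341 CPM or less. Necab1, a neuronal calcium-binding protein, Prex1, a Rac exchange factor, and the zinc finger gene Zfp157 had log2 fold changes of -1.32, -1.30 and -1.11 (adjusted p = 0.0427, 0.0479 and 0.0427). Rec114, a meiotic recombination gene, was among the 5 genes with the lowest p although it was low throughout, at 2.70 to 4.68 CPM in the wild-type livers and 0.284 to 1.12 CPM in the tumors (log2 fold change -2.47, standard error 0.349, adjusted p = 0.0259).

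**Figure D2:**
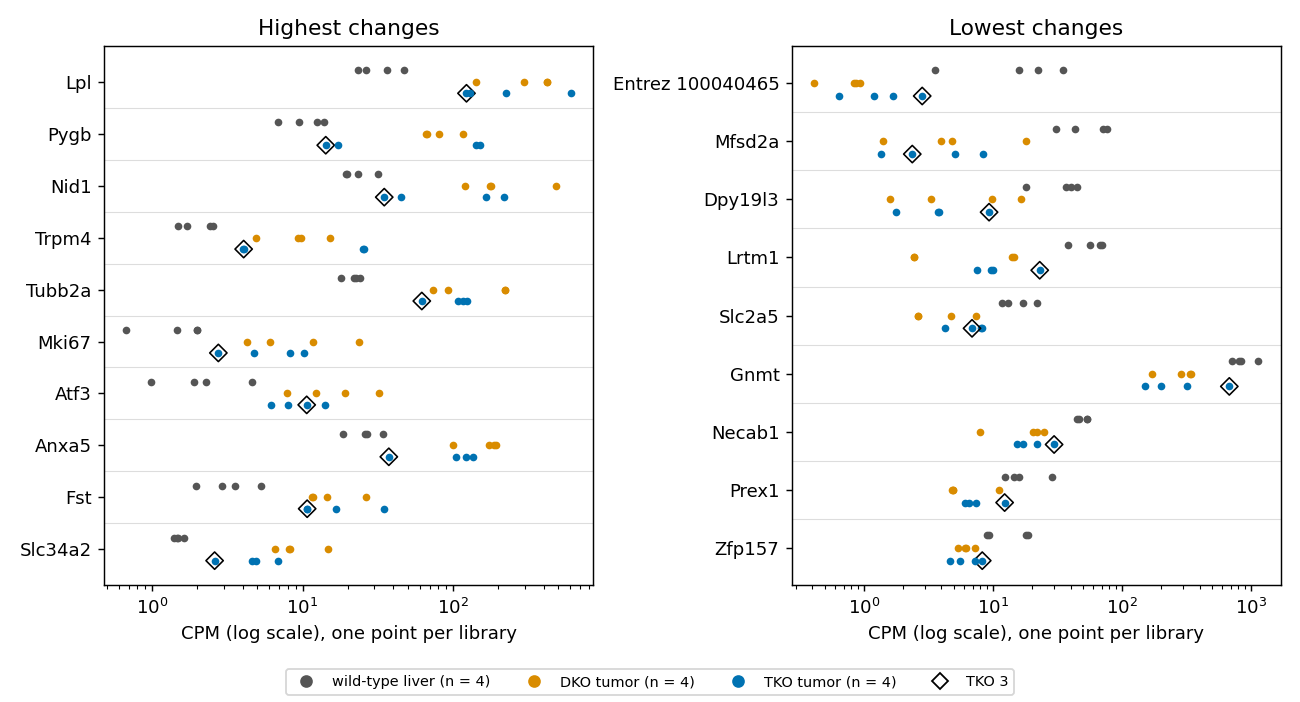
The 10 highest (left) and 9 of the 10 lowest (right) log2 fold changes among called genes with a mean of at least 5 CPM and no overlap between groups, with CPM on a log axis and 1 point per library (grey wild-type livers, orange DKO tumors, blue TKO tumors); a diamond marks TKO 3. In each row the tumor points lie on 1 side of the wild-type points, and TKO 3 is often the tumor next to them, as for Gnmt at 679 CPM.

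Genes of cell division were higher in most tumors, but few passed the test. Of 65 tested genes of mitosis and cytokinesis, 64 had a log2 fold change above 0 (52.9% of all tested genes did), with a median of 1.35, and 3 rose and 0 fell against 0.843% and 0.656% of all genes. Mki67, the proliferation marker Ki-67, was at 2.00, 1.48, 0.678 and 1.98 CPM in the wild-type livers and ranged from 2.76 to 23.8 CPM in the tumors (median 7.19) (log2 fold change 2.55, standard error 0.576, adjusted p = 0.0483). Ccnb2, a B-type cyclin that drives entry into mitosis, was at 1.19, 0.861, 0.881 and 1.17 CPM in the wild-type livers and ranged from 1.76 to 7.54 CPM in the tumors (median 3.24) (log2 fold change 1.91, standard error 0.385, adjusted p = 0.0427). For both genes all tumors were above all wild-type livers, with DKO 2 the highest for Mki67, TKO 1 the highest for Ccnb2 and TKO 3 the lowest for both. Kif20a, a kinesin of cytokinesis, was at 1.63, 0.738, 2.17 and 1.39 CPM in the wild-type livers and ranged from 1.46 to 8.28 CPM in the tumors (median 5.39) (log2 fold change 1.80, standard error 0.399, adjusted p = 0.0477). Here TKO 3, at 1.46 CPM, lay within the wild-type range. Without TKO 3, 36 of the 65 genes were called higher, and DESeq2 called 37. The summed level of the list was 92.7 to 144 CPM in the wild-type livers and 118 to 512 CPM in the tumors, lowest in TKO 3 and highest in DKO 2.

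Of 64 tested genes of DNA replication and the start of S phase, 0 rose and 0 fell by edgeR, with 29 higher and 1 lower at an unadjusted p under 0.05 and a median log2 fold change of 0.76. DESeq2 called 8 higher and 1 lower. Lig1, the ligase of the lagging strand, was at 4.08, 2.83, 4.47 and 8.57 CPM in the wild-type livers and ranged from 6.54 to 23.4 CPM in the tumors (median 13.1) (log2 fold change 1.43, standard error 0.390, adjusted p = 0.0672). Mcm10, a replication initiation factor, went the other way, at 87.5, 138, 149.5 and 65.7 CPM in the wild-type livers and from 18.1 to 91.7 CPM in the tumors (median 43.6) (log2 fold change -1.29, standard error 0.365, adjusted p = 0.0698). TKO 3 at 91.7 CPM lay within the wild-type range. The wild-type level of Mcm10 was far above that of Lig1. Strandedness is not given, and whether reads of an overlapping gene were counted for Mcm10 was not tested.

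Among 33 tested G1 cyclins, CDK inhibitors and p53 targets, 2 CDK inhibitors rose and 1 pocket protein gene fell, against 0.843% and 0.656% of all tested genes. Without TKO 3 the counts were 4 and 1, and by DESeq2 3 and 1. Cdkn2c (chr4:109333481-109339794), which encodes p18 of the INK4 family that blocks CDK4 and CDK6, was at 2.74, 3.44, 1.83 and 2.05 CPM in the wild-type livers and ranged from 3.45 to 15.8 CPM in the tumors (median 11.8) (log2 fold change 2.11, standard error 0.358, adjusted p = 0.0379). TKO 3, at 3.45 CPM, was level with the highest wild-type liver, and the other tumors had at least 6.98 CPM. Cdkn1a (chr17:29227924-29237667), which encodes the p53 target p21, was at 5.56, 3.69, 2.91 and 13.5 CPM in the wild-type livers and ranged from 13.9 to 41.7 CPM in the tumors (median 25.2) (log2 fold change 2.07, standard error 0.468, adjusted p = 0.0482). Wild-type 4, the highest wild-type liver, came close to TKO 1 and TKO 3. Rbl2, which encodes the pocket protein p130 of quiescent cells, was at 34.4, 33.3, 33.8 and 36.0 CPM in the wild-type livers and ranged from 15.5 to 29.5 CPM in the tumors (median 18.9) (log2 fold change -0.79, standard error 0.155, adjusted p = 0.0427). The list as a whole had a median log2 fold change of 0.19, with 22 of 33 genes above 0.

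The upstream sequences of the cell cycle genes Ccnb2, Mki67 and Cdkn2c are shown for letters known from cell cycle promoters, with that of Tubb2a beside them as a gene that rose without such letters. The 250 bases before the transcription start were taken from RefSeq (GRCm38.p6) and are written 5′ to 3′ on the gene's strand. Both strands were searched for TTTGAA, the core of the cell cycle homology region, for TTTCGAA, for GCGGGAA and GGCGGGA, which are E2F-type letters, and for CCAAT, the NF-Y box, and matches stand in capitals. GCGGGAA and GGCGGGA can overlap each other.

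Ccnb2, chr9:70421555-70421804, minus strand: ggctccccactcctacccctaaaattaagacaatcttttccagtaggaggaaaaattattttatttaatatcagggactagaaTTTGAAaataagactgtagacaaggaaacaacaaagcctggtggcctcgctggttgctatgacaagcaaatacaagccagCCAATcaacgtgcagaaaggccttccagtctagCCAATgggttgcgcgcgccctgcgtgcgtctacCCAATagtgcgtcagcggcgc

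Mki67, chr7:135716380-135716629, minus strand: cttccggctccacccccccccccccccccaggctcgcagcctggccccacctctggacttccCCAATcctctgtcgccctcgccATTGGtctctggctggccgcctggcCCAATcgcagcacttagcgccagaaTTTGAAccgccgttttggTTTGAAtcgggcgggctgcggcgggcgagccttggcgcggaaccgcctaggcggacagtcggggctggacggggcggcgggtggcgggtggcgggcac

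Cdkn2c, chr4:109666757-109667006, minus strand: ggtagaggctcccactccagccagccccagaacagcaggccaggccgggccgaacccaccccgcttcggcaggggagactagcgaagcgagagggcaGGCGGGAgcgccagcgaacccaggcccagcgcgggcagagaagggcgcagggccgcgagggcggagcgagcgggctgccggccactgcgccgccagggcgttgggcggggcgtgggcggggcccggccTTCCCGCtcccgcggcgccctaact

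Tubb2a, chr13:34078009-34078258, minus strand: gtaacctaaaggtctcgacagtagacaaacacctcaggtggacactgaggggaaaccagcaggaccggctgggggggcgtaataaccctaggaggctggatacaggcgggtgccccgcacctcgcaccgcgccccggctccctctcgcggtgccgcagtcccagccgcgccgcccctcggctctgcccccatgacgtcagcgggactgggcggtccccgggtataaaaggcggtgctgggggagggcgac

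In Ccnb2, TTTGAA starts at -167 and CCAAT at -87, -54 and -21 from the transcription start. In Mki67, TTTGAA starts at -116 and -98, and CCAAT or its reverse complement at -188, -166 and -141. In the first of 2 promoters listed for Cdkn2c, GGCGGGA starts at -153 and the reverse complement of GCGGGAA at -25. Tubb2a, a tubulin gene with one of the lowest p values of all genes, holds none of these letters in this window. TTTGAA was held by 35.8% of the 53 mitosis genes and 14% of the 50 replication genes with a promoter in the table, by 11.1% of 90 genes that rose, by 7.25% of 69 genes that fell and by 11% of 10424 tested genes. CCAAT was held by 73.6% of the mitosis genes, 66% of the replication genes, 38.9% of the genes that rose, 39.1% of those that fell and 36.7% of the tested genes. TTTCGAA was held by 1.89% of the mitosis genes, 2% of the replication genes, 0% of the genes that rose, 2.9% of those that fell and 0.854% of the tested genes. GCGGGAA was held by 26% of the replication genes, 0% of the mitosis genes, 8.89% of the genes that rose, 4.35% of those that fell and 6.75% of the tested genes, and GGCGGGA by 30%, 24.5%, 21.1%, 18.8% and 17.6%. A match is only a string of letters and not a site.

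By edgeR on all libraries, the list with the most calls was that of tubulins and the actin cytoskeleton, in which 9 of 41 tested genes rose and 0 fell, against 0.843% and 0.656% of all tested genes. The lists were written with earlier results of these data known, so this count and its rank only describe the list and carry no test. The order of the lists turned without TKO 3, where 16 genes of this list and 36 mitosis genes were called higher, and by DESeq2, with 16 and 37. Tubulins are the subunits of microtubules and of the mitotic spindle. Tubb2a (chr13:34166170-34169877) was at 22.5, 18.1, 24.2 and 22.1 CPM in the wild-type livers and ranged from 62.0 to 223 CPM in the tumors (median 112) (log2 fold change 2.55, standard error 0.362, adjusted p = 0.0259). Its paralog Tubb2b (chr13:34218877-34222223) was at 6.23, 5.04, 4.88 and 5.49 CPM in the wild-type livers and ranged from 13.7 to 45.2 CPM in the tumors (median 22.4) (log2 fold change 2.20, standard error 0.327, adjusted p = 0.0259). TKO 3 was the lowest tumor for both genes, at 62.0 and 13.7 CPM, and still above every wild-type liver. Over all alternatives the adjusted p of Tubb2a ranged from 2.53e-10 to 0.134. How reads that fit several places were counted is not given, so reads of these near-identical tubulins could be split between them. Tubb5, Tuba1a and Tubb3, named after their values were seen, had log2 fold changes of 0.86, 1.03 and 2.04 (adjusted p = 0.0427, 0.0427 and 0.0497), the last from a level of only 0.123 to 0.297 CPM in the wild-type livers. Pea15a (chr1:174126859-174136935), a small protein that binds ERK and was put in this list, was at 19.9, 12.4, 15.6 and 22.3 CPM in the wild-type livers and ranged from 31.1 to 42.3 CPM in the tumors (median 35.8) (log2 fold change 1.04, standard error 0.152, adjusted p = 0.0259). Its 8 tumor values were close to each other, and TKO 3 at 31.1 CPM was again the lowest. The other members that rose were Nhsl1, Tpm4, a tropomyosin, and Actg1, cytoplasmic actin, with log2 fold changes of 1.16, 0.78 and 0.71. The summed level of the list was 1932 to 2230.4 CPM in the wild-type livers and 2343 to 3089 CPM in the tumors, without overlap. Its median log2 fold change was 0.37, and 39 of 41 genes were above 0.

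Genes known from blood vessels, and genes of Notch, ephrin and TGF-beta signals, rose as well. RNA from pieces of tissue does not show in which cells this took place. These genes were named after their values were seen, so their number is no support for a theme. Esm1 (chr13:113999867-114008306), a proteoglycan of endothelial tip cells, had the highest log2 fold change of all genes that rose. It was at 1.78, 0.369, 1.63 and 1.10 CPM in the wild-type livers and ranged from 1.38 to 31.4 CPM in the tumors (median 16.4) (log2 fold change 3.76, standard error 0.689, adjusted p = 0.0427), with TKO 3 at 1.38 CPM inside the wild-type range and the other tumors at 9.24 CPM or more. Dll4, the Notch ligand of arterial and sprouting endothelium, was at 2.37, 1.23, 1.90 and 3.08 CPM in the wild-type livers and ranged from 4.03 to 10.4 CPM in the tumors (median 5.56) (log2 fold change 1.47, standard error 0.287, adjusted p = 0.0427). The receptors Notch1 and Notch3 had log2 fold changes of 0.90 and 1.31 (adjusted p = 0.044 and 0.0483). The ephrin ligands Efna1 and Efnb2 had 1.34 and 1.40, and the ephrin receptor Epha2 had 1.44 (adjusted p = 0.0427, 0.0483 and 0.0393). Sox18, an endothelial transcription factor, and Robo4, an endothelial receptor, had log2 fold changes of 1.32 and 1.06 (adjusted p = 0.0427 and 0.0448). Tgfbr2, a receptor of TGF-beta, was at 26.4, 16.6, 18.4 and 35.2 CPM in the wild-type livers and ranged from 21.6 to 90.4 CPM in the tumors (median 80.7) (log2 fold change 1.56, standard error 0.339, adjusted p = 0.0455), and its lowest tumor, TKO 3 at 21.6 CPM, lay among the wild-type livers.

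The endothelial markers themselves gave 0 calls by edgeR. Of 16 tested, 14 were above 0 with a median log2 fold change of 0.38, 4 were higher at an unadjusted p under 0.05, and DESeq2 called 4. Pecam1, the junction protein CD31, was at 17.7, 12.2, 10.6 and 22.2 CPM in the wild-type livers and ranged from 21.8 to 69.5 CPM in the tumors (median 29.6) (log2 fold change 1.09, standard error 0.307, adjusted p = 0.0697). Emcn, endomucin, was at 2.15, 1.23, 1.90 and 1.54 CPM in the wild-type livers and ranged from 2.22 to 14.1 CPM in the tumors (median 4.50) (log2 fold change 1.70, standard error 0.471, adjusted p = 0.0689). DKO 4 was the highest tumor for both. The summed level of the markers was 239 to 373 CPM in the wild-type livers and 293 to 590.3 CPM in the tumors, highest in TKO 3, and no marker was at 0 in any library. Clec4g and Stab2, sinusoidal markers named outside the naming rule, had log2 fold changes of -0.20 and 0.03 (adjusted p = 0.869 and 0.965, edgeR). Other sinusoidal markers of the list, such as Stab1, Lyve1, Fcgr2b and Oit3, are not given singly. Clec4g and Stab2 therefore do not stand for the sinusoidal markers as a set. The part of the endothelial share in the genes of this group that rose was not tested.

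Of 49 tested laminins, collagens and integrins, 2 rose and 0 fell, against 0.843% and 0.656% of all tested genes, with a median log2 fold change of 0.29. Without TKO 3, 7 rose, and 8 by DESeq2. The 2 were Nid1, described above, and Sparc, a collagen-binding matrix protein, which was at 67.6, 85.8, 67.4 and 106 CPM in the wild-type livers and ranged from 126 to 235 CPM in the tumors (median 171) (log2 fold change 1.07, standard error 0.189, adjusted p = 0.0393). The groups did not overlap for Sparc, and TKO 3 at 176 CPM was in the middle of the tumors. The stellate cell and fibroblast markers gave 0 calls by edgeR among 16 tested and a median of -0.18, with 1 lower at an unadjusted p under 0.05 and 0 called by DESeq2. Their summed level was 372 to 619 CPM in the wild-type livers and 226 to 804 CPM in the tumors.

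Markers of the other cell types of liver gave 0 calls by edgeR in every list. The median log2 fold change was -0.27 over 16 Kupffer cell and macrophage markers, -0.33 over 13 lymphocyte markers, 0.42 over 4 neutrophil markers, 0.40 over 6 red blood cell markers, 0.56 over 7 cholangiocyte markers and -0.41 over 12 hepatocyte markers. The lists had held 17 lymphocyte, 10 neutrophil and 12 cholangiocyte markers, of which those with too few counts were not tested. In the lists of this paragraph 1, 1, 1, 1, 1 and 2 genes passed an unadjusted p of 0.05, against 3116 of all 13882 tested genes. Those of macrophages and hepatocytes were lower, and those of lymphocytes, neutrophils, red blood cells and cholangiocytes higher. DESeq2 called 0, 1, 0, 1, 0 and 0. The macrophage markers summed to 321 to 797 CPM in the wild-type livers and 209.8 to 854 CPM in the tumors, highest in TKO 3, and the lymphocyte markers to 53.6 to 139.6 CPM in the wild-type livers and 21.5 to 335 CPM in the tumors, highest in DKO 3. Albumin, the defining hepatocyte product, was present throughout, and its log2 fold change was 0.65 (standard error 0.650, adjusted p = 0.594).

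Mitochondrial genes were lower in the tumors by small amounts, and few passed the test. All 37 subunits of respiratory complex I had a log2 fold change below 0, with a median of -0.41, and 1 fell (background 0.656%). It was Ndufa12, at 13.1, 21.0, 15.9 and 10.5 CPM in the wild-type livers and from 7.28 to 10.7 CPM in the tumors (median 8.58) (log2 fold change -0.78, standard error 0.174, adjusted p = 0.0477), where wild-type 4 overlapped the upper tumors. Of 38 tested subunits of complexes II to V, 37 were below 0, with a median of -0.34, and Cox7c, a subunit of cytochrome c oxidase, fell. It was at 70.0, 73.9, 66.1 and 39.0 CPM in the wild-type livers and ranged from 23.8 to 40.3 CPM in the tumors (median 35.0) (log2 fold change -0.87, standard error 0.174, adjusted p = 0.0427), again with wild-type 4 within the tumor range. Of 22 genes of the tricarboxylic acid cycle and pyruvate dehydrogenase, Fh1, fumarate hydratase, and Suclg2, a subunit of succinyl-CoA ligase, fell (background 0.656%), and the median was -0.18. Fh1 was at 254, 165, 201 and 171 CPM in the wild-type livers and ranged from 102 to 160.2 CPM in the tumors (median 112) (log2 fold change -0.75, standard error 0.148, adjusted p = 0.0427). Suclg2 was at 179, 202, 175 and 186 CPM in the wild-type livers and ranged from 109 to 159 CPM in the tumors (median 123) (log2 fold change -0.54, standard error 0.116, adjusted p = 0.0448). Neither overlapped. Sod2, the mitochondrial superoxide dismutase, named after its value was seen, was at 165 to 213 CPM in the wild-type livers and 93.2 to 147 CPM in the tumors (log2 fold change -0.64, standard error 0.128, adjusted p = 0.0427). The 33 genes of fatty acid oxidation and ketone synthesis gave 0 calls by edgeR, 11 lower at an unadjusted p under 0.05, 4 lower by DESeq2 and a median of -0.41. Echs1 and Acadm, 2 enzymes of beta-oxidation, had log2 fold changes of -0.60 and -0.65 (adjusted p = 0.051 and 0.0702). Without TKO 3, the complex I list had 7 genes called lower and the list of complexes II to V had 5.

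Amino acid breakdown and the urea cycle had the lowest median of the metabolic lists, -0.54, with 52 of 54 genes below 0. Gnmt, described above, and Auh, an enzyme of leucine breakdown, fell (background 0.656%), and 8 genes lay below the wild-type livers in all tumors (1.46% of all tested genes did). Auh was at 36.4, 42.9, 40.8 and 37.2 CPM in the wild-type livers and ranged from 17.5 to 33.1 CPM in the tumors (median 23.3) (log2 fold change -0.68, standard error 0.153, adjusted p = 0.0477). The summed level was 27302 to 31271 CPM in the wild-type livers and 12717 to 25799 CPM in the tumors, without overlap and highest in TKO 3. Without TKO 3, 17 of the 54 genes were called lower, and DESeq2 called 17. Of the hepatocyte enzymes used as markers, Pck1, the gluconeogenic PEPCK, and Ass1, of the urea cycle, had log2 fold changes of -1.54 and -0.94 but a wide spread, with tumors at 62.8 to 1203 and 179 to 1240.1 CPM (adjusted p = 0.159 and 0.218).

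Of 55 genes of drug conjugation and transport, 2 fell (background 0.656%), 6 without TKO 3 and 8 by DESeq2, and the median was -0.27. Slco1a1 (chr6:141855803-141895483), a bile acid and drug importer that is higher in male livers, was at 881, 965, 1171 and 1154 CPM in the wild-type livers and ranged from 335 to 646 CPM in the tumors (median 492) (log2 fold change -1.10, standard error 0.215, adjusted p = 0.0427), without overlap. Gstk1, a mitochondrial and peroxisomal glutathione transferase, was at 142, 257, 186 and 161 CPM in the wild-type livers and ranged from 77.3 to 156 CPM in the tumors (median 96.7) (log2 fold change -0.88, standard error 0.197, adjusted p = 0.0477), with only TKO 3 inside the wild-type range. The 48 cytochrome P450s had a median of -0.31 and gave 0 calls by edgeR, with 14 lower and 4 higher at an unadjusted p under 0.05, and DESeq2 called 6 lower and 2 higher. Cyp2c54 had the lowest p of them, at 345, 657, 575 and 388 CPM in the wild-type livers and from 46.1 to 281 CPM in the tumors (median 107) (log2 fold change -1.89, standard error 0.442, adjusted p = 0.051). Its reads may be shared with other genes of the Cyp2c cluster. The 24 genes of bile acid synthesis and transport had a median of -0.43 and 0 calls by edgeR, with 6 lower and 2 higher at an unadjusted p under 0.05 and 5 lower and 1 higher by DESeq2. Nr1h4, the bile acid receptor FXR, had a log2 fold change of -0.67 (adjusted p = 0.0541).

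Secreted proteins and the factors that drive hepatocyte identity had smaller medians than the lists of drug conjugation, cytochrome P450s and bile acids. Both held genes that went either way, so a small median does not mean that their members changed less. The 69 plasma proteins and apolipoproteins had a median of -0.16 and the 33 hepatocyte transcription factors one of -0.18, each with 0 calls by edgeR. At an unadjusted p under 0.05 the first list had 7 lower and 1 higher and the second 13 lower and 4 higher, and DESeq2 called 6 lower and 1 higher, and 5 lower and 1 higher. F13b, a subunit of clotting factor XIII, Cebpb, a transcription factor of the acute-phase response, and Nr1i3, the xenobiotic receptor CAR, came nearest to the threshold, with log2 fold changes of -0.50, -0.90 and -1.10 (adjusted p = 0.051, 0.051 and 0.0527). Of 29 acute-phase genes, Saa3, a serum amyloid A, fell (background 0.656%), and the median was -0.25. It was at 21.7, 7.13, 8.81 and 107 CPM in the wild-type livers and ranged from 3.53 to 10.7 CPM in the tumors (median 5.01) (log2 fold change -2.58, standard error 0.577, adjusted p = 0.0477). Its fold rested on wild-type 4, and without that liver the log2 fold change was -1.06 (adjusted p = 0.135, the highest of its alternatives, which ranged from 9.51e-04 to 0.135). The lists of glucose metabolism (33 genes, median 0.07) and of sterol and fatty acid synthesis (31 genes, median 0.35) gave 0 calls by edgeR. At an unadjusted p under 0.05 the first had 5 higher and 4 lower and the second 3 higher and 1 lower. Of all 13882 tested genes, 1813 were higher and 1303 lower at that level. DESeq2 called 2 and 1. Pnpla3, a lipase of lipid droplets, ranged from 2.22 to 117 CPM in the tumors (median 32.9) against 1.11 to 5.86 CPM in the wild-type livers (log2 fold change 3.29, standard error 0.907, adjusted p = 0.0687). The 78 cytosolic ribosomal protein genes had a median of -0.14 and 0 calls by edgeR, 6 lower at an unadjusted p under 0.05 and 0 by DESeq2.

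Genes that differ between male and female livers had large medians in opposite directions. The 23 male-biased genes had a median log2 fold change of -1.10, with 18 below 0 and Slco1a1 the only call. The 29 female-biased genes had one of 1.17, with 21 above 0 and 0 calls by edgeR. Of these, 10 were higher and 1 lower at an unadjusted p under 0.05, and DESeq2 called 7 higher and 1 lower. The female-biased median was 0.36 by DESeq2. By genotype it was 1.64 in DKO tumors and 0.08 in TKO tumors, and the male-biased median was -1.40 and -0.66, each against the same wild-type livers. These differences between list medians were not tested. Hao2, a peroxisomal hydroxyacid oxidase, was at 1.78, 1.35, 2.10 and 4.98 CPM in the wild-type livers and ranged from 2.45 to 34.6 CPM in the tumors (median 13.2) (log2 fold change 2.43, standard error 0.660, adjusted p = 0.0668). The male-biased genes summed to 14736 to 19682 CPM in the wild-type livers and 3495 to 18560.0 CPM in the tumors, lowest in DKO 4, and every library carried Y-linked counts, as given above.

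**Figure D3:**
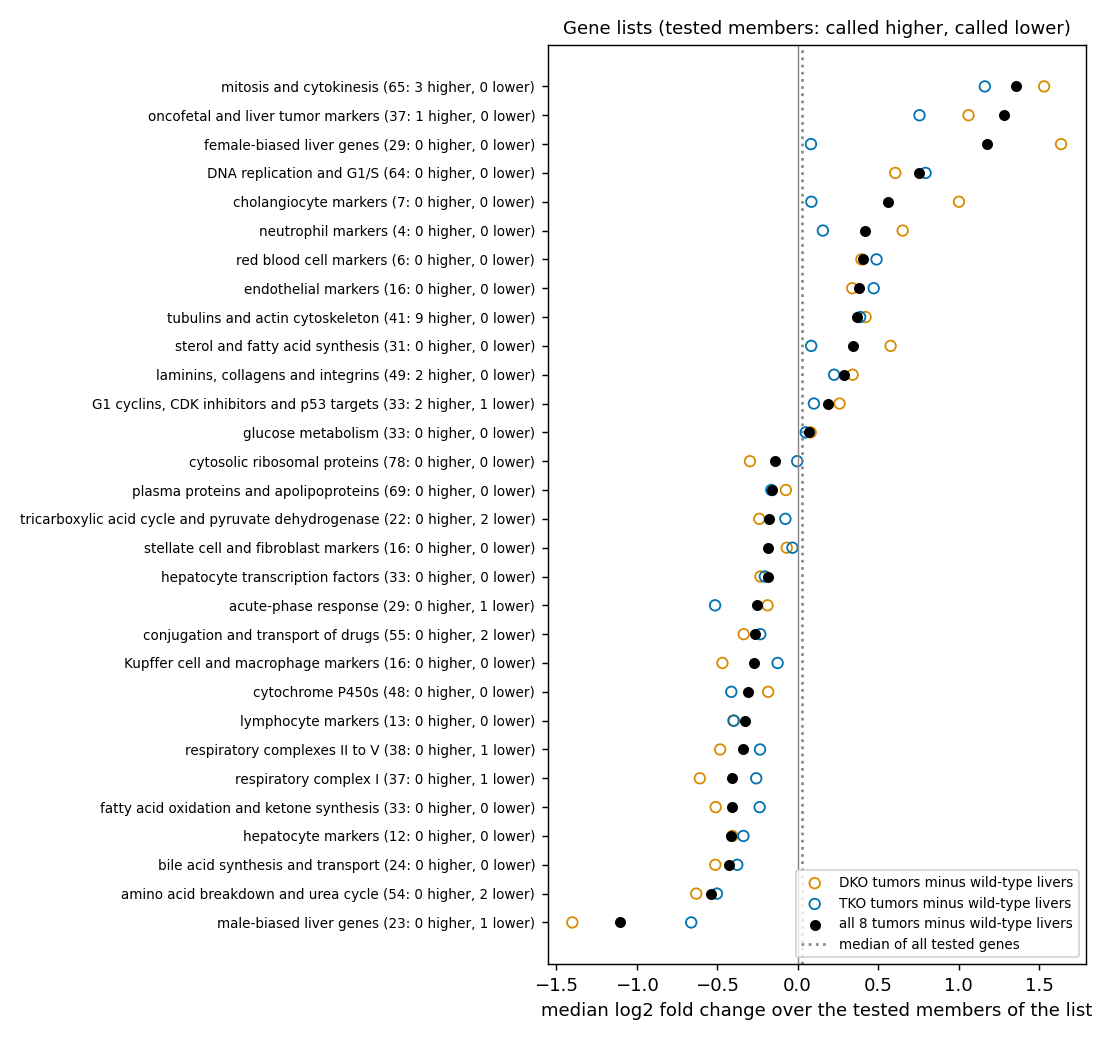
Each row is a gene list with its number of tested members and of members called higher and lower in all tumors. Points give the median log2 fold change over the tested members for all 8 tumors (black), the DKO tumors (orange ring) and the TKO tumors (blue ring) against the same 4 wild-type livers, and the dotted line is the median of all tested genes, 0.03. Mitosis lies highest at 1.35 and male-biased liver genes lowest at -1.10.

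**Figure D4:**
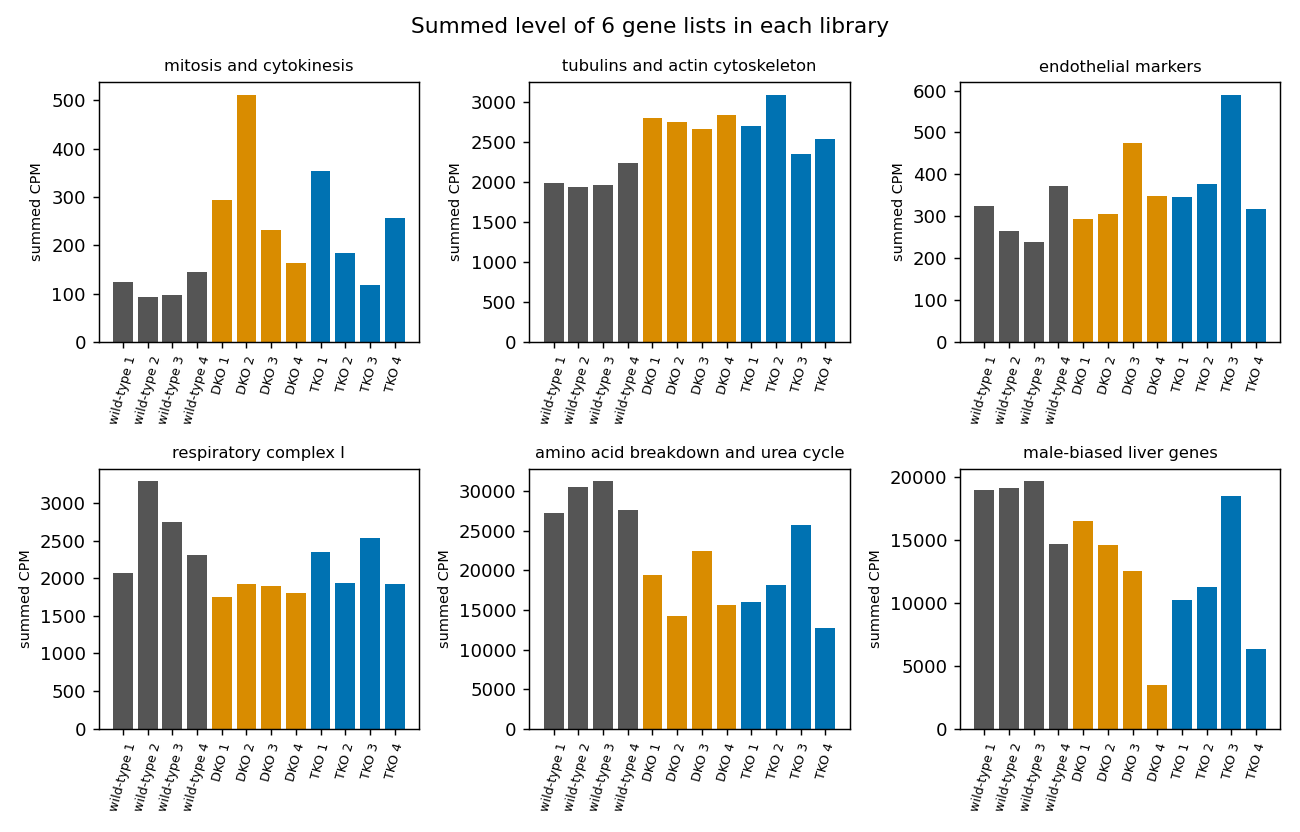
Bars give the summed CPM of the tested members of 6 gene lists in each of the 12 libraries (grey wild-type livers, orange DKO tumors, blue TKO tumors), on axes that start at 0. Tumor bars are above all wild-type bars for tubulins and the actin cytoskeleton and below them for amino acid breakdown, while for mitosis, endothelial markers, complex I and male-biased genes the groups overlap.

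The 208 genes were then set side by side in the 2 genotypes, each against the same wild-type livers. All 117 genes that rose and all 91 that fell had the same sign in both genotypes, which the pooled call favours, against 75.8% of all tested genes. The median log2 fold change of the genes that rose was 1.34 in DKO tumors and 1.23 in TKO tumors, and that of the genes that fell -0.90 and -0.75. In a model with a mean for each group, 92 that rose and 43 that fell were called in DKO tumors, where 1.41% of the 13882 genes were called higher and 1.01% lower. In TKO tumors 3 and 0 were called, where 0.0504% of all genes were called higher and 0.0360% lower, and 25 that rose and 48 that fell were called in neither. The direct test of TKO against DKO tumors called 0 of the 208 genes. The lowest adjusted p was 0.450 among the genes that rose and 0.498 among those that fell, and 5 and 4 had an unadjusted p under 0.05. Over all tested genes it called 0 by edgeR, with 1250 at an unadjusted p under 0.05, and 56 by DESeq2, none of which was among the 208. Of the 20 genes with the highest and lowest changes, Entrez 100040465, Nid1 and Slc34a2 differed most between the genotypes. The TKO minus DKO difference in log2 fold change was 1.05 for Entrez 100040465 (standard error 0.652), -1.04 for Nid1 (standard error 0.569) and -0.98 for Slc34a2 (standard error 0.300), with adjusted p from 0.45 to 0.644. Pygb, Zfp157 and Necab1 differed least, by -0.03, 0.05 and 0.16, with standard errors of 0.632, 0.274 and 0.299. For Pygb that error is wide, and a p that misses the threshold does not show that the genotypes are alike.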

How the data were processed

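Liver tissue from 12 mice was sequenced, 8 tumors and 4 wild-type livers, grouped by the sample labels. The authors mapped 40-bp SOLiD reads of poly(A) RNA to mm9 by BWA and summed them over genes by featureCounts. The deposited table gives raw counts of 26301 Entrez genes, without normalization. Software versions, strandedness and the handling of multiply matching reads are not given in the sources used here, so counts of overlapping genes and near-identical copies are uncertain. Symbols came from the RefSeq gene table (GRCm38.p6), which matched 24191 identifiers with 99.4% of all counts. Gene positions are those of GENCODE vM1 on mm9, matched by symbol. All 12 columns matched a label.

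The main comparison used edgeR 4.0.16 in R 4.3.3, with TMM scaling, filterByExpr on the tumor and wild-type groups (13882 genes kept), a quasi-likelihood test of all tumors against wild-type livers and Benjamini-Hochberg adjustment at 0.05. Each genotype, and TKO against DKO tumors, was tested in a model with 3 group means. All genotype comparisons share the wild-type livers. The alternatives were DESeq2 1.42.0, which the study's methods name, other scalings and filters, blocks by replicate number and by the letter of the library code in the labels, limma 3.58.1 voom with sample weights, a sex-gene covariate, other thresholds and leaving out each library. The scripts were tested on simulated counts. With 200 changed genes, 2.5% of edgeR's 160 calls and 19.6% of DESeq2's 219 calls were false. With no gene changed, they called 0 and 6 genes. In that setting DESeq2 did not hold its calls at the threshold, so its counts are given only beside those of edgeR. The simulated counts were drawn once per setting with the gene spreads that edgeR had estimated. They therefore do not rank the tools on these data.

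Named genes were the deleted genes, the 10 highest and 10 lowest changes among called genes with a mean of at least 5 CPM and no overlap, the 5 lowest p values, up to 3 called genes in each direction per list or, in a list without calls, the 2 lowest p values, 5 sex-linked genes and albumin as checks, and, of the extreme changes, the 3 largest and 3 smallest genotype differences. Others are named as chosen after their values were seen. Of the genes with the lowest changes, 1 is not reported here. The comparison, the 31 gene lists and this rule were chosen with earlier results of these data known, so list counts carry no test. Of 1054 listed symbols, 1050 were in the table. Every pair of libraries differed by more than sampling noise. The labels do not say whether replicates came from separate litters or days, and p values measure the spread between these mice. Totals of 9165812 to 16424973 counts bound the precision of low genes. Ms4a1, Ngp, Cxcr2, Hgf, Klrb1c, Slc4a1, Gpnmb and other list members that fit the rule but carry no call are given only through their lists or in the closing section.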

Additional observations from a re-analysis of the deposited data

Results flagged for a closer look

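A library was picked out where its gap to the nearest other library of its group exceeded Dixon's 95% limit. Over 194 groups of named genes, 23 libraries were picked out (11.9%). For normally spread values the rate would be about 1 in 20. CPM were not put on a log scale here and many of the genes were named for their values. The rates therefore cannot be set against each other as a result.

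Among the tumors, DKO 4 was far above the others for the endothelial genes Pecam1 (69.5 CPM, others 21.8 to 33.2), Emcn (14.1 CPM, others 2.22 to 6.94), Dll4 (10.4 CPM, others 4.03 to 6.09) and Robo4 (16.1 CPM, others 7.20 to 10.8), and for the fatty acid synthesis gene Acacb (212 CPM, others 10.1 to 94.1). TKO 3 was apart toward the wild-type levels for Gnmt (679 CPM, others 150 to 341), Gstk1 (156 CPM, others 77.3 to 112) and Tgfbr2 (21.6 CPM, others 58.0 to 90.4). DKO 3 was above the others for the B cell gene Ms4a1 (4.32 CPM, others 0.354 to 1.69), the neutrophil gene Ngp (7.51 CPM, others 0.236 to 2.15), Nnmt (8.10 CPM, others 0.603 to 2.61), Mfsd2a (18.2 CPM, others 1.35 to 8.43) and Fh1 (160 CPM, others 102 to 122). DKO 1 was above the others for Nid1 (483 CPM, others 34.9 to 219) and Slc34a2 (14.7 CPM, others 2.61 to 8.31), DKO 2 for Mki67 (23.8 CPM, others 2.76 to 11.7) and TKO 1 for Pnpla3 (117 CPM, others 2.22 to 56.5).

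Among the wild-type livers, wild-type 2 was above the others for Apoc4 (500 CPM, others 313 to 340). Wild-type 4 was above them for Saa3 (107 CPM, others 7.13 to 21.7) and below them for the Y-linked Eif2s3y (32.0 CPM, others 45.0 to 47.1). Wild-type 1 was above them for Nnmt (100 CPM, others 2.51 to 17.0) and Tubb3 (0.297 CPM, others 0.123 to 0.146), and wild-type 3 below them for Klrb1c (0.136 CPM, others 0.366 to 0.371).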

How the results depend on the processing

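The count of 208 changed genes moved with most settings. It was 1205 at an adjusted p of 0.1, 1344 by DESeq2, 1885 by limma-voom with quality weights, 344 with a mean for each of the 3 groups, 360 with the letter of the library code as a block, 93 without a filter on low counts, 70 with total counts as the only scaling and 7 with a covariate from sex-linked genes. That covariate, the Y-linked level minus that of Xist, was lowest in DKO 1, TKO 1 and DKO 2 (4.82, 5.24 and 5.33). All 12 libraries read as male, so counts with this covariate are not adjusted for a sex difference. The count of changed genes was 0 by edgeR's glmTreat against a fold change of 1.5, with 931 at an unadjusted p under 0.05 in that test. DESeq2's size factors, at least 10 counts in every library, and libraries with more Y-linked than Xist counts, which were all 12, kept the count of 208 within 1.5 times. Leaving out a library gave 0 to 1150 genes (unadjusted 2205 to 3599): 0 without wild-type 1, 2 or 3, TKO 1 or TKO 2, 5 without wild-type 4, 4, 19, 26 and 56 without DKO 1, 2, 3 and 4, 1150 without TKO 3 and 357 without TKO 4.

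For DKO tumors alone the count of 336 became 1460 at an adjusted p of 0.1, 1518 by DESeq2, 59 with total counts, 1804 by limma-voom and 6 with the sex covariate, and 0 to 684 when a library was left out (0 without wild-type 2 or 3, with unadjusted counts of 2482 and 2560; 684 without TKO 3). For TKO tumors alone the count of 12 became 80, 507, 97 and 5 at an adjusted p of 0.1, by DESeq2, by limma-voom and with the sex covariate, 22 without a filter, and 0 to 232 when a library was left out (232 without TKO 3). Between the genotypes 56 genes differed by DESeq2 and 0 under the other settings run for it, which left out the code-letter block and glmTreat (848 to 1729 at an unadjusted p under 0.05 when a library was left out), and of the 208 genes 0 differed under any of these. Called members over all lists were 27, and 175 by DESeq2, 10 with total counts, 48 with 3 group means and 3 with the sex covariate. No list median changed sign under these settings and DESeq2's size factors. With total counts those of glucose metabolism and hepatocyte transcription factors moved to 0.17 and -0.08.

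Of the named genes, Uty changed sign with total counts (0.0235) and with the code-letter block (0.0227), Cxcr2 with the code-letter block (-0.0691) and Ms4a1 without wild-type 1 (from -1.74 to 0.16 when a library was left out). None of these was called. With the replicate number as a block, the counts were 318 for all tumors, 509 for DKO and 1 for TKO tumors. Same-numbered libraries share only a number: of 12 pairs, 5 had correlated deviations above 0.1 (range -0.17 to 0.37), and 6 of 12 libraries correlated best with their own number. The cause of these shifts was not tested. Counting depth limits genes such as E2f7, with 4 to 24 counts per library.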

Other observations

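Beside Gnmt, 2 other enzymes around S-adenosylmethionine, the methyl donor of the liver, fell. Ahcy and Nnmt were named after their values were seen and are no support for a theme. Ahcy, which hydrolyses S-adenosylhomocysteine, was at 675, 752, 668 and 758 CPM in the wild-type livers and ranged from 308 to 554 CPM in the tumors (median 378) (log2 fold change -0.81, standard error 0.177, adjusted p = 0.0461, edgeR), without overlap. Nnmt, which methylates nicotinamide, was at 100.2, 17.0, 2.51 and 6.96 CPM in the wild-type livers and ranged from 0.603 to 8.10 CPM in the tumors (median 1.40) (log2 fold change -3.80, standard error 0.831, adjusted p = 0.0461, edgeR). Its fold rested on wild-type 1. Without that liver the log2 fold change was -1.95 (adjusted p = 0.15, edgeR). The call passed under 8 of 22 alternatives, and over all alternatives its log2 fold change ranged from -4.50 to -1.95.

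Ddit3, which encodes CHOP of the unfolded protein response, rose. It was named after its values were seen and is no support for a theme. It was at 3.86, 1.72, 4.27 and 3.22 CPM in the wild-type livers and ranged from 5.43 to 12.9 CPM in the tumors (median 7.91) (log2 fold change 1.40, standard error 0.300, adjusted p = 0.0448, edgeR). Atf3 was at 4.60, 0.984, 1.90 and 2.27 CPM in the wild-type livers and ranged from 6.19 to 32.2 CPM in the tumors (median 11.5). All tumors were above all wild-type livers for both genes.

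Of the Y-linked genes, Kdm5d had 28, 14 and 38 counts in DKO 1, DKO 2 and TKO 1, or 2.15, 1.11 and 2.29 CPM, against 8.46 to 16.5 CPM in the other 9 libraries. Ddx3y, Eif2s3y and Uty were not low in these libraries, with Ddx3y at 64.7, 69.8 and 47.9 CPM against 48.6 to 81.2 CPM in the others. The difference in Kdm5d between libraries was not tested.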
